A study of Mus musculus with 6 samples.

Results

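Lentivirus carrying a short hairpin RNA (shRNA) against Stc1, given at 18 µl, was compared with lentivirus carrying a non-targeting shRNA in 4T1ch9 cells, a clone derived from the Balb/c mouse mammary carcinoma line 4T1. The comparison took 4 of the study's 6 arrays: both arrays of the 18 µl STC1 virus against both non-targeting arrays, chosen by their labels. The non-targeting group mixes volumes, since its replicate 1 received 6 µl of virus and its replicate 2 received 18 µl; they are called the 6 µl and the 18 µl control below. The other 2 arrays came from cells given 6 µl of the STC1 virus, which entered the estimate of the spread and 1 comparison with the 18 µl arrays. Every group, controls included, was lentivirally transduced and kept under puromycin for 5 to 6 days, and no untransduced cells were analysed here. The labels name a single STC1 virus without its hairpin sequence. They do not state whether the STC1 arrays of one volume were separate cultures. The controls, given different volumes, were separate transductions. The p-values therefore measure the spread between these arrays within 1 clone. That spread may be technical for the STC1 pairs, and for the controls it includes the difference in volume.

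An shRNA expressed from an integrated lentivirus is processed into a small interfering RNA that guides the silencing complex to matching mRNAs. Puromycin leaves alive the cells that carry the resistance gene of the vector. Stc1 encodes stanniocalcin 1, a secreted glycoprotein hormone first described in fish as a brake on calcium uptake and made by many mammalian tissues and tumours. The 4T1 line is widely used as a model of mammary carcinoma that spreads from the mammary gland of Balb/c mice.

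The levels below are normalised log2 intensities, in which a difference of 1 is a 2-fold change, and a level of one probe cannot be set against that of another. Mean raw signal was 253.6 and 254.2 on the 18 µl STC1 arrays and 228.3 and 253.1 on the control arrays. Between 16252 and 17165 of 45281 probes were detected on each of these 4 arrays. The keratins Krt8, Krt18 and Krt7 were detected on all 6 arrays, while Krt14, Krt19 and Epcam were detected on none. Of the markers of other cell types, 6 of 8 for fibroblasts, 4 of the 6 analysed for leukocytes and 5 of 7 for endothelium were detected on no array; Pdgfra was detected on all 6. The summed linear level of the fibroblast markers was 996 to 1160 on the control arrays and 1050 to 1430 on the 18 µl STC1 arrays, and that of the epithelial markers was 10900 to 11100 and 8560 to 11700. Pdgfra carried most of the fibroblast sum: its log2 level was 9.97 and 9.72 on the controls and 9.78 and 10.29 on the STC1 18 µl arrays, while the 6 undetected markers reached at most 4.69. The part of these differences in the results was not tested.

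The 18 µl STC1 arrays were the least alike of the 3 pairs. The SD of the log2 differences over tested probes was 0.28 between them, 0.25 between the controls and 0.24 between the 6 µl STC1 arrays. STC1 18 µl replicate 2 lay closer to the 6 µl STC1 arrays (SD 0.24 to each) than to its own replicate 1, which lay 0.3 and 0.31 from them. Results that rest on 1 of these arrays are given below with and without it.

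Stc1 itself was lower on both arrays of the STC1 virus. Its level was 9.05 on the 6 µl control and 9.32 on the 18 µl control, against 8.05 and 7.74 on STC1 18 µl replicates 1 and 2. The groups did not overlap, and the log2 difference was −1.29 (SE 0.16, 95% interval −1.66 to −0.92), a 2.44-fold lower signal (limma, adjusted p = 0.00736). In RNA from a cell population, fewer cells with a transcript and less of it in each cell cannot be told apart. The fall was 1.42 on the log2 scale against the 18 µl control alone (limma, adjusted p = 0.03), and with STC1 18 µl replicate 2 left out it was 1.13 and no longer passed (limma, adjusted p = 0.0588). Stc2, the paralogue that encodes the other stanniocalcin, was near background: it was above background on 1 control array and on neither 18 µl STC1 array, and its difference did not pass (limma, adjusted p = 0.242).

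Across the array, 717 of 18076 tested probes (3.97%) differed between the 18 µl STC1 virus and the controls (limma, adjusted p under 0.05), of which 304 (1.68%) were higher and 413 (2.28%) were lower. The higher probes made up 42.4% of the calls, and 56% of 971 calls when arrays were scaled to their medians in place of quantile normalisation. The probes stood for 9754 named genes, of which 423 (4.34%) changed: 195 (2%) rose and 228 (2.34%) fell. The counts of called members in each list below are to be read beside these shares. Changes of at least 2-fold were seen in 104 genes (1.07%), 47 higher and 57 lower, and changes of at least 4-fold in 1 gene that rose and 2 that fell. The fall of Stc1 ranked 28 among the falls, so 27 genes fell by more. The median log2 difference over all tested genes was 0.04. Of the called genes, 169 had another tested probe; for 63 of them a further probe passed in the same direction, and for 0 in the other.

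**Figure D1:**
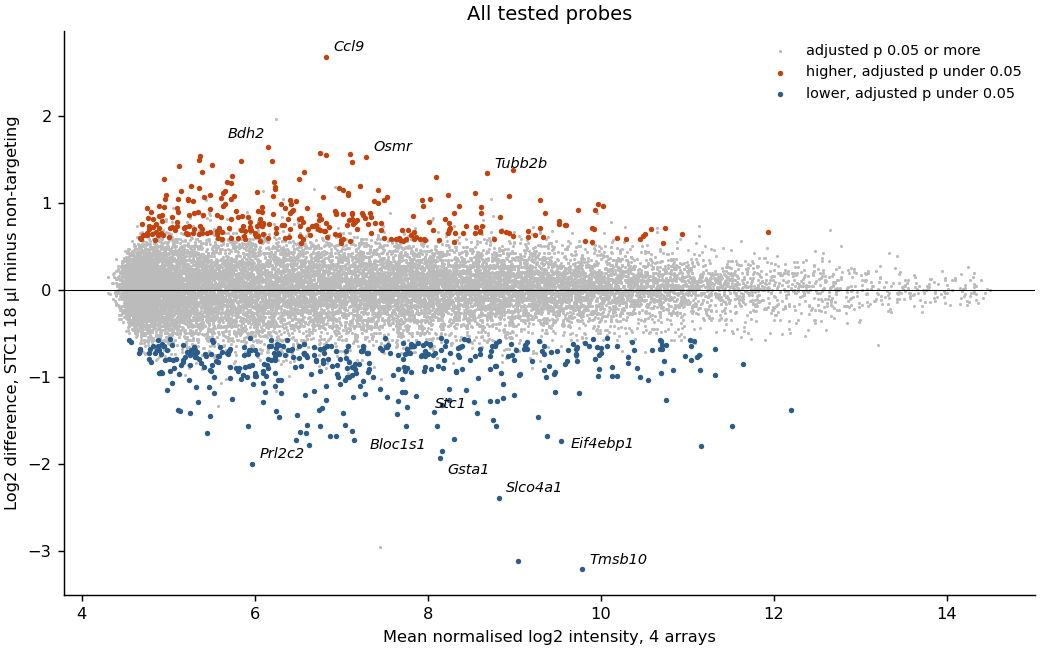
Log2 difference of STC1 18 µl minus non-targeting against mean normalised log2 intensity over the 4 arrays, for the 18076 tested probes. Orange points are the 304 probes that were higher and blue points the 413 that were lower at an adjusted p under 0.05; Ccl9 has the largest rise and Tmsb10 the largest fall among named genes.

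The number of called probes changed with the arrays in the fit. A fit with fewer arrays has less to estimate the spread from, so a call can be lost where the log2 difference stays. With 1 of the 4 compared arrays left out, the log2 difference of Tap2 was 0.88 to 0.94 and that of Rnase4 0.9 to 2.04. The number of called probes was 292 with only the 4 compared arrays in the fit, where the named genes kept their log2 differences. It was 93 without the 6 µl control, 185 without the 18 µl control, 454 without STC1 18 µl replicate 1 and 89 without STC1 18 µl replicate 2. In the fit without the 6 µl control, the 18 µl virus is compared with a control of its own volume only. With each of these 4 arrays left out in turn, 57 probes were called every time, 17 higher and 40 lower, and they stood for 39 genes, of which 14 rose and 25 fell. On all 717 called probes both 18 µl STC1 arrays lay beyond both controls, as they did on 51% of the tested probes.

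**Figure D2:**
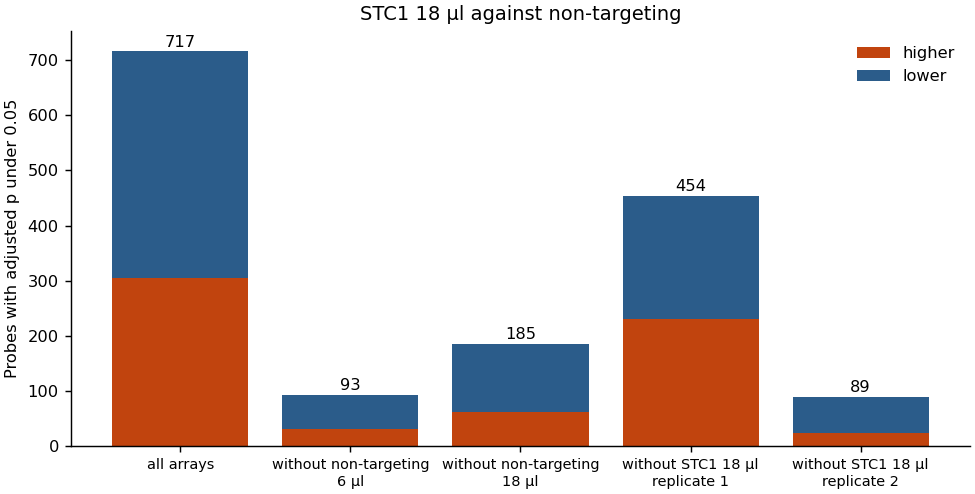
Number of probes with an adjusted p under 0.05 in STC1 18 µl against non-targeting, with all arrays and with 1 array left out at a time, split into higher (orange) and lower (blue). The bars stand at 717, 93, 185, 454 and 89 probes.

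The largest rise was that of Ccl9, which encodes a CC chemokine that attracts myeloid cells. Its level was 5.34 and 5.63 on the 6 and 18 µl controls and 8.27 and 8.05 on the STC1 18 µl arrays. Both STC1 arrays stood far above both controls, a 6.4-fold difference (log2 difference 2.68, SE 0.16, limma, adjusted p = 0.000438). Osmr and Il27ra, each a subunit of a receptor for cytokines related to interleukin 6, rose as well. Both were picked for the size of their rise, and other subunits of such receptors are not reported here. Osmr, the receptor subunit for oncostatin M, was at 6.57 and 6.47 on the controls and at 8 and 8.1 on the STC1 arrays, 2.88-fold higher (SE of the log2 difference 0.13, limma, adjusted p = 0.00221). Il27ra, a subunit of the interleukin 27 receptor, was at 7.43 and 7.46 against 8.94 and 8.56, 2.47-fold higher (SE 0.15, limma, adjusted p = 0.00554), and a second probe for it was also called. Neither gene's groups overlapped, which was a condition for naming a gene among the largest rises. With 1 of the 4 arrays left out, the log2 difference of Ccl9 was 2.53 to 2.82. That of Osmr was 1.48 to 1.58 and that of Il27ra 1.11 to 1.49. The rest of the chemokine and cytokine list gave no further call: 1 of 15 tested members rose, 0 fell, and the median log2 difference was −0.12 against 0.04 over all genes; it was 0.09 without the 6 µl control and 0.22 without STC1 18 µl replicate 2.

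Slc24a3, Camk2n1, Sag, Syngr3 and Tubb2b also rose. Slc24a3, a potassium-dependent sodium/calcium exchanger that moves calcium out of the cell, was at 6.26 and 5.85 on the controls and 7.45 and 7.76 on the STC1 arrays, 2.93-fold higher (SE 0.17, limma, adjusted p = 0.00482). Camk2n1, an inhibitor of the calcium/calmodulin-dependent kinase CaMKII, was at 4.81 and 4.42 against 5.85 and 6.35, 2.81-fold higher (SE 0.21, limma, adjusted p = 0.0107), and was above background on 1 control array. Sag encodes arrestin 1, known from the switching off of the light response in photoreceptors. It was at 5.96 and 5.98 on the controls and 7.64 and 7.44 on the STC1 arrays, 2.97-fold higher (SE 0.13, limma, adjusted p = 0.00221). Syngr3, a synaptic vesicle protein, was at 5.1 on each control and at 6.51 and 6.65 on the STC1 arrays, 2.78-fold higher (SE 0.13, limma, adjusted p = 0.00221). For Tubb2b, a beta-tubulin best known in neurons, the brightest probe was at 7.88 and 8.15 against 9.45 and 9.26, 2.53-fold higher (SE 0.14, limma, adjusted p = 0.00402). Its other 2 tested probes, with log2 differences of 0.21 and 0.63, did not pass. Of the genes in this paragraph, Camk2n1 was no longer called without the 18 µl control or without STC1 18 µl replicate 2, where its adjusted p was highest at 0.0757 (limma).

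Bdh2, Rnase4, Inmt and Olfml3 also rose. Bdh2, a cytosolic short-chain dehydrogenase, was at 5.5 and 5.17 on the controls and 6.51 and 7.43 on STC1 18 µl replicates 1 and 2, 3.11-fold higher (SE 0.27, limma, adjusted p = 0.0177). Rnase4, a secreted ribonuclease, was at 6.57 and 6.2 against 7.29 and 8.42, 2.77-fold higher (SE 0.31, limma, adjusted p = 0.0416). Inmt, which methylates indoles and amines, was above background on neither control and at 5.35 and 6.33 on the STC1 arrays, at least 2.13-fold higher (limma, adjusted p = 0.0292), while its second tested probe did not pass (limma, adjusted p = 0.492). In all 3 genes replicate 2 was the higher array, and they were called in 1 of the 4 fits with an array left out, the one without replicate 1. Without replicate 2 the log2 difference of Rnase4 was 0.9, down from 1.47; the highest adjusted p was 0.0789 for Bdh2, 0.143 for Rnase4 and 0.104 for Inmt (limma), each without the 18 µl control. Olfml3, a secreted olfactomedin-like protein, was at 6.02 and 5.77 against 7.23 and 7.28, 2.56-fold higher (SE 0.14, limma, adjusted p = 0.00378).

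The remaining named rises were Mustn1, Fam180a and Grb7. Mustn1, a small nuclear protein of the musculoskeletal system, was at 6.12 and 6.54 on the controls and 7.67 and 8.1 on the STC1 arrays, 2.95-fold higher (SE 0.19, limma, adjusted p = 0.00703). Fam180a was above background on neither control and at 5.92 and 6.36 on the STC1 arrays, at least 2.61-fold higher (limma, adjusted p = 0.00378). Grb7, an adaptor that binds ERBB2 and other receptor tyrosine kinases, was uneven within the controls: it stood at 4.33 and 5.09 there, with 1 control array above background, and at 6.04 and 6.11 on the STC1 arrays, 2.57-fold higher (SE 0.24, limma, adjusted p = 0.0234). Mustn1 lost its call without STC1 18 µl replicate 2 (limma, adjusted p = 0.0565). Grb7 was called only without the 18 µl control, and its adjusted p reached 0.122 without STC1 18 µl replicate 2 (limma).

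**Figure D3:**
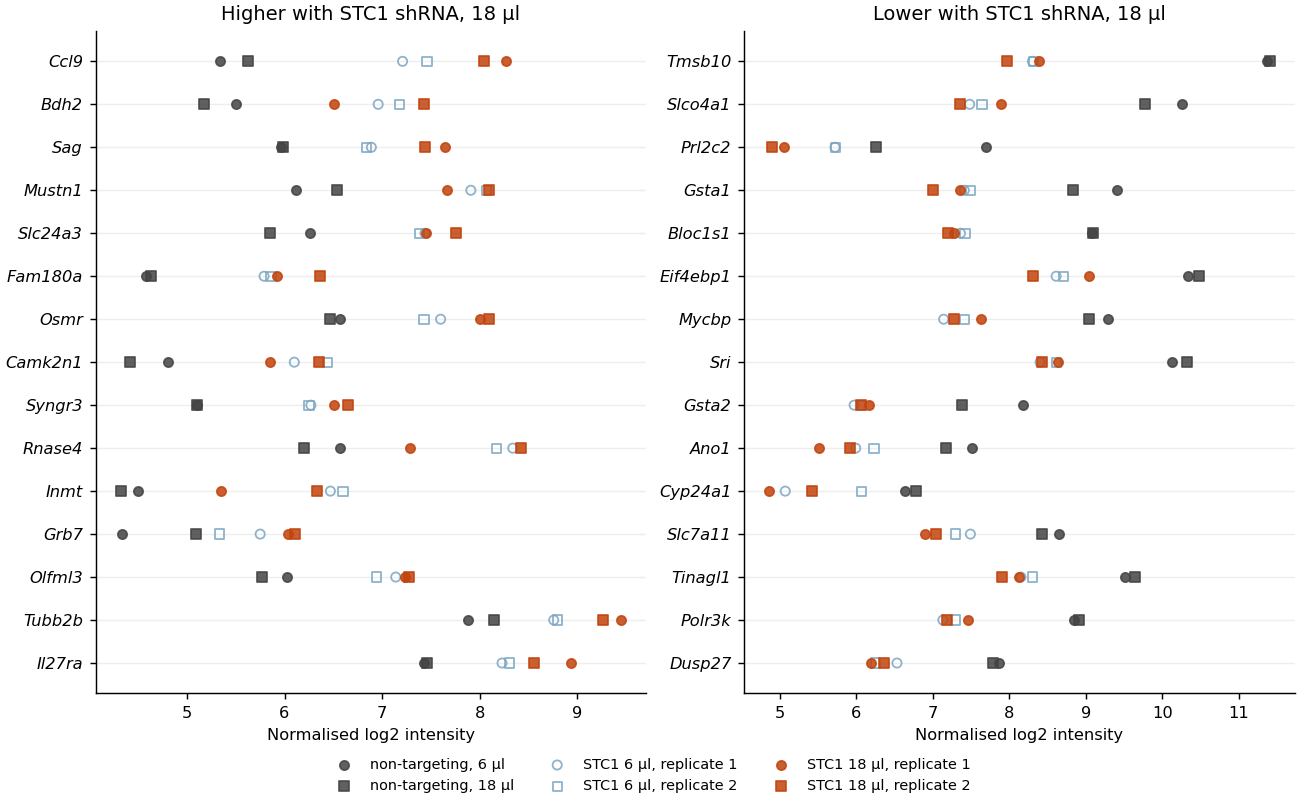
Normalised log2 intensity on each of the 6 arrays for the 15 named genes with the largest rise (left) and the 15 with the largest fall (right); grey marks are non-targeting, open blue marks STC1 at 6 µl and filled orange marks STC1 at 18 µl. No gene has its grey and orange marks overlapping, which was a condition of the choice. In Bdh2, Rnase4 and Inmt the orange marks lie farthest apart among the rises.

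The largest fall was that of Tmsb10, which encodes thymosin beta 10, a small peptide that binds actin monomers. Its level was 11.37 and 11.4 on the 6 and 18 µl controls and 8.39 and 7.97 on the STC1 18 µl arrays, a 9.25-fold lower signal (log2 difference −3.21, SE 0.16, limma, adjusted p = 0.000117). Its other tested probes differed by −3.12 and −0.95. Msn, which encodes moesin, a linker of actin to the plasma membrane, fell from 8.34 and 7.94 to 6.96 and 6.87, 2.34-fold (SE 0.17, limma, adjusted p = 0.0105), but a second probe for Msn gave a log2 difference of −0.01. The call of Msn was lost without the 6 µl control and without STC1 18 µl replicate 2, with an adjusted p of up to 0.0778 (limma). These were the only calls among 24 tested genes of actin and of actin monomer binders, whose median log2 difference was −0.13. The share called was 8.33%, against 4.34% of all genes.

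Slco4a1, Ano1, Sri, Cyp24a1 and Phex also fell. Slco4a1, an organic anion transporter that carries thyroid hormone, was at 10.26 and 9.77 on the controls and 7.89 and 7.36 on the STC1 arrays, 5.25-fold lower (SE 0.21, limma, adjusted p = 0.00221). Ano1, a calcium-activated chloride channel, was at 7.51 and 7.17 against 5.51 and 5.92, 3.08-fold lower (SE 0.18, limma, adjusted p = 0.00529). Sri encodes sorcin, a calcium-binding protein that modulates calcium release channels. It was at 10.12 and 10.32 on the controls and 8.64 and 8.43 on the STC1 arrays, 3.2-fold lower (SE 0.15, limma, adjusted p = 0.00221). Cyp24a1, the enzyme that inactivates vitamin D, was at 6.64 and 6.78 against 4.86 and 5.42, 2.97-fold lower (SE 0.3, limma, adjusted p = 0.0309). The 6 µl STC1 arrays, which enter that SE, were uneven for Cyp24a1, at 5.07 and 6.07. With only the 4 compared arrays in the fit its SE was 0.2 (limma, adjusted p = 0.02). The fall of Cyp24a1 did not pass with any of the 4 arrays left out; its adjusted p then lay between 0.0898 and 0.121 (limma). Phex, a membrane endopeptidase whose loss causes phosphate wasting, fell 2.62-fold (7.01 and 6.88 against 5.66 and 5.46, limma, adjusted p = 0.00823), and lost its call without the 6 µl control and without STC1 18 µl replicate 2, where its adjusted p was 0.0736 (limma).

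Set together, 3 of 32 tested calcium-handling genes rose (Slc24a3, Camk2n1 and Trpv2), 2 fell (Sri and Cyp24a1), against 4.34% of all genes called, and the list's median log2 difference was −0.11. Trpv2, a cation channel, was not above background on the controls and was at least 1.21-fold higher (limma, adjusted p = 0.048); it passed in none of the fits with an array left out, where its adjusted p reached 0.19 (limma). Among 6 tested phosphate genes, Phex alone changed, and the median was 0.16.

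Gsta1, Gsta2 and Txn2, enzymes and proteins of glutathione and thioredoxin chemistry, fell. Gsta1 and Gsta2 encode alpha-class glutathione transferases, which join glutathione to electrophiles, and their sequences are close enough that a probe may bind both transcripts. Gsta1 was at 9.4 and 8.83 on the controls and 7.36 and 7 on the STC1 arrays, 3.82-fold lower (SE 0.2, limma, adjusted p = 0.00378). Gsta2 was at 8.18 and 7.38 against 6.16 and 6.06, 3.2-fold lower (SE 0.23, limma, adjusted p = 0.00955), and lost its call without STC1 18 µl replicate 2 (limma, adjusted p = 0.0787). The class was not lower as a whole: of 18 tested glutathione transferases 2 fell, 1 rose and the median log2 difference was 0.15, at −0.05 on STC1 18 µl replicate 1 and 0.3 on replicate 2. The gene that rose, Gstk1, the mitochondrial and peroxisomal transferase, was 1.68-fold higher (limma, adjusted p = 0.0337) and passed in none of the fits with an array left out (highest adjusted p 0.182, limma). Txn2, mitochondrial thioredoxin, fell from 7.69 and 7.85 to 6.8 and 6.53, 2.15-fold (SE 0.15, limma, adjusted p = 0.00955), with its call lost without the 18 µl control and without STC1 18 µl replicate 2 (up to 0.0691, limma). In the glutathione and thioredoxin list 3 of 28 tested members (10.7%) fell, against 2.34% of all genes, namely Slc7a11, Txn2 and Chac1, and 0 rose.

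The remaining named falls spanned several compartments. Bloc1s1, a subunit shared by the BLOC-1 and BORC complexes of endosomes and lysosomes, was at 9.08 and 9.09 on the controls and 7.28 and 7.2 on the STC1 arrays, 3.61-fold lower (SE 0.12, limma, adjusted p = 0.000754). Mycbp, which binds the amino-terminal part of MYC, was at 9.29 and 9.04 against 7.63 and 7.27, 3.28-fold lower (SE 0.17, limma, adjusted p = 0.00337); of its other tested probes 1 was called, at −1.72, and 1, at 0.2, was not. Polr3k, a small subunit of RNA polymerase III that takes part in RNA cleavage and termination, was at 8.85 and 8.91 against 7.46 and 7.19, 2.94-fold lower (SE 0.14, limma, adjusted p = 0.00221). In both multi-subunit lists a single member accounted for the change: Bloc1s1 was the 1 call among 32 tested lysosome and BLOC genes, with a median of −0.08, and Polr3k the 1 call among 19 RNA polymerase III genes, with a median of −0.02. Tinagl1, a secreted matricellular protein, was at 9.51 and 9.64 against 8.13 and 7.9, 2.95-fold lower (SE 0.14, limma, adjusted p = 0.00221), with other probes at −1.28, called, and −0.52, not called. Dusp27, a member of the dual-specificity phosphatase family, was at 7.86 and 7.79 against 6.19 and 6.36, 2.93-fold lower (SE 0.14, limma, adjusted p = 0.00221). These 5 genes passed with each of the 4 arrays left out in turn.

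Prl2c2, which encodes proliferin, a secreted hormone of the prolactin family, had unequal controls. It was at 7.69 on the 6 µl and 6.26 on the 18 µl control, against 5.05 and 4.89 on the STC1 arrays, 4-fold lower (SE 0.37, limma, adjusted p = 0.0262), while its second probe, at −0.74, did not pass. Against the 18 µl control alone the log2 difference was −1.28, in place of −2 with both controls, and −2.71 without that control. The call was lost without either STC1 18 µl array, with an adjusted p of up to 0.131 (limma). Near-identical copies of the gene exist in the mouse, so this probe may not report 1 gene.

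Of the genes of the ATF4 programme, Slc7a11, Eif4ebp1, Chac1 and Nupr1 fell. ATF4 is a transcription factor whose mRNA is better translated when eIF2 is phosphorylated, and it drives genes for amino acid uptake, amino acid synthesis and tRNA charging. Of 28 tested members of this list 4 fell, 0 rose and 24 did not pass, where 4.34% of all tested genes were called and 2.34% fell. A difference above 0 was found in 4 of the 28 members and in 5458 of all 9754 genes. The median log2 difference was −0.33 against 0.04 over all genes, at −0.22 on STC1 18 µl replicate 1 and −0.37 on replicate 2. On the 6 µl STC1 arrays it was −0.41 against the same controls. The list, like the others here, was drawn up with earlier results of these data known, so its direction is not independent evidence. Promoters of the called members are shown because ATF4 binds, with C/EBP partners, a composite element written here as TGATGNAA; its matches on either strand are in capitals, and each sequence is RefSeq's for build GRCm38.p6, 250 bases before to 50 after the gene's start, on the gene's strand.
Chac1, chr2:119350992-119351291, plus strand: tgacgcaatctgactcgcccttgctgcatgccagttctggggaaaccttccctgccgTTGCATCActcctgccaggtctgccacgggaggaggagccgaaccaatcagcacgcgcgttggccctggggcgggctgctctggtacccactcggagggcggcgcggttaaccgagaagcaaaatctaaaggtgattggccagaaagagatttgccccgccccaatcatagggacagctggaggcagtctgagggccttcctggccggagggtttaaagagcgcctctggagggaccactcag
Slc7a11, chr3:50443564-50443863, minus strand: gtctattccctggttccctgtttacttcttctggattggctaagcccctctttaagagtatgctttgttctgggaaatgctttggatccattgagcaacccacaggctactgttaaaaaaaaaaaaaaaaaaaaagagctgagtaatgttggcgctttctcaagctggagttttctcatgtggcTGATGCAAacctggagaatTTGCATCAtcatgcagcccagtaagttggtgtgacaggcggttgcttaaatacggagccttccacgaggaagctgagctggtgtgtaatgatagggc
Nupr1, chr7:126625421-126625720, minus strand: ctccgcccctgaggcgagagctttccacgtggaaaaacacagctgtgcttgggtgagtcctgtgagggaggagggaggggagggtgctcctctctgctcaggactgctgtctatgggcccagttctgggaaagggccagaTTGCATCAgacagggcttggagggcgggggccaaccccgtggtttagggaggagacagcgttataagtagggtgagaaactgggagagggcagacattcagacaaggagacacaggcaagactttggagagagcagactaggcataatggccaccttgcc

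The motif was present in 3.97% of 32851 mouse promoters of this length, or in 4.51% of 27025 genes. Of the 28 tested list members 24 had a promoter in the table and 9 of them held the motif. Among the 4 called members, 3 had a promoter there, and each of these held it: Chac1 with a match starting 193 bases before the start, Nupr1 with one at 110 and Slc7a11 with 2, at 66 and 47. The matches are letters in these windows and do not show binding.

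Slc7a11 encodes the transport subunit of the cystine/glutamate exchanger that supplies cystine for glutathione. It was at 8.65 and 8.42 on the controls and 6.89 and 7.04 on the STC1 arrays, 2.96-fold lower (SE 0.14, limma, adjusted p = 0.00221). Its second tested probe, at a log2 difference of −0.53, did not pass (limma, adjusted p = 0.081). Chac1, an enzyme that degrades glutathione, was at 10.05 and 9.96 against 9.01 and 8.08, 2.75-fold lower (SE 0.26, limma, adjusted p = 0.0232). Eif4ebp1 encodes 4E-BP1, which restrains cap-dependent translation by binding eIF4E. It was at 10.34 and 10.48 on the controls and 9.04 and 8.31 on the STC1 arrays, 3.34-fold lower (SE 0.22, limma, adjusted p = 0.00726). Nupr1, a small stress-induced chromatin protein, was at 9.19 and 8.98 against 7.98 and 8.17, 2.01-fold lower (SE 0.14, limma, adjusted p = 0.00955). Both STC1 arrays lay below both controls in each of the 4 genes, as on every probe called lower. Chac1 and Eif4ebp1 were lower still on replicate 2. Slc7a11 and Eif4ebp1 passed with each of the 4 arrays left out. Nupr1 lost its call without the 6 µl control (limma, adjusted p = 0.0693), and Chac1 was called only without STC1 18 µl replicate 1, with an adjusted p of up to 0.107 otherwise (limma).

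Members that make amino acids or charge tRNAs did not pass. The log2 difference was −0.71 for Phgdh, the first enzyme of serine synthesis (limma, adjusted p = 0.0759), and −0.59 for the neutral amino acid transporter Slc1a4 (limma, adjusted p = 0.0574). It was −0.57 for asparagine synthetase, Asns (limma, adjusted p = 0.135), and −0.34 for Atf4 itself (limma, adjusted p = 0.25). The stress-induced factors Ddit3, Atf3 and Trib3 had differences of 0.15, 0.02 and −0.05. In the neighbouring list of protein folding in the endoplasmic reticulum, 2 of 25 tested members fell: Pdia4, a disulphide isomerase, by 2.32-fold (limma, adjusted p = 0.00881), and Xbp1, a transcription factor of the unfolded protein response, by 1.69-fold (limma, adjusted p = 0.0183). Their list had 8% called, against 4.34% of all genes, and a median of −0.12. Pdia4 lost its call without the 6 µl control (limma, adjusted p = 0.0584), and Xbp1 passed in none of the fits with an array left out (up to 0.114, limma).

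**Figure D4:**
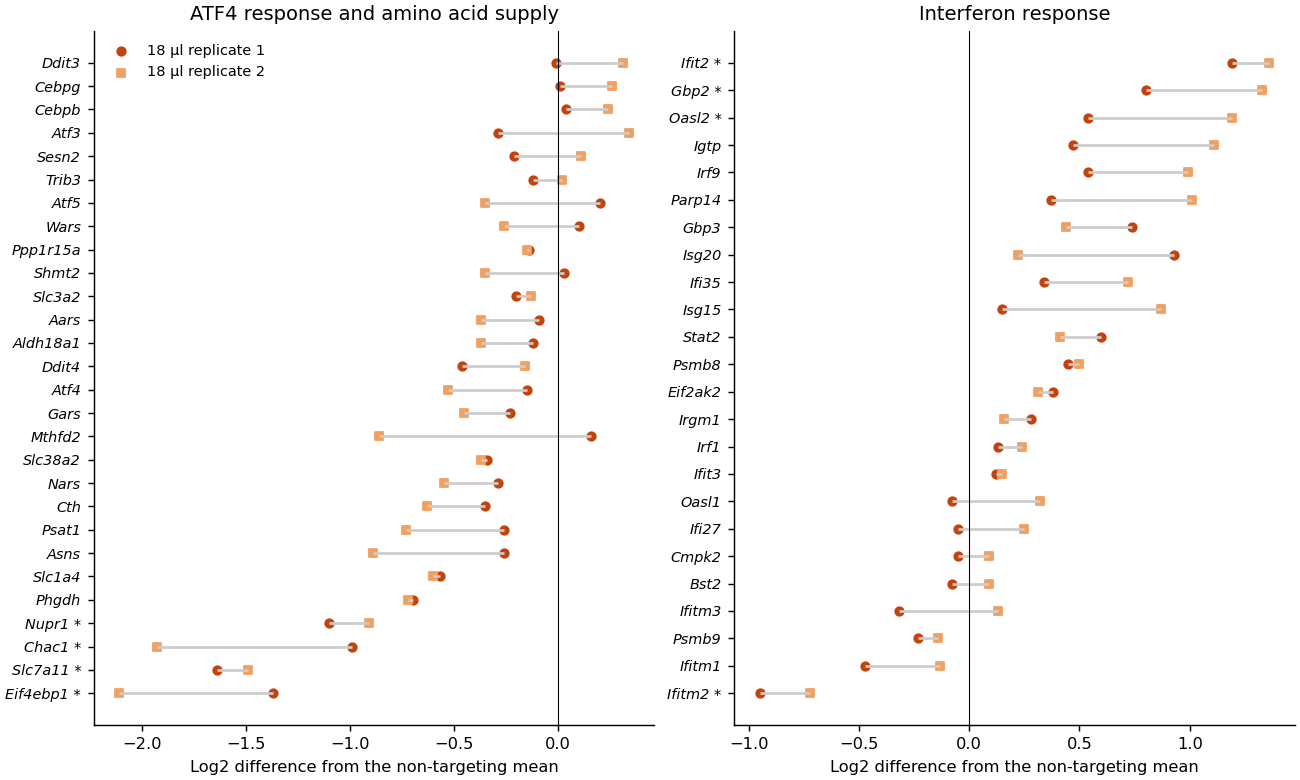
Log2 difference of each STC1 18 µl array from the mean of the controls for the 28 tested members of the ATF4 list (left) and the 24 of the interferon list (right), sorted by their mean; an asterisk marks an adjusted p under 0.05. In the left plot Eif4ebp1, Slc7a11, Chac1 and Nupr1 stand lowest, and in the right plot Ifit2 is highest and Ifitm2 lowest.

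Of the genes of the interferon response, Ifit2, Gbp2 and Oasl2 rose and Ifitm2 fell. Interferons are cytokines that switch on genes that restrict viruses, and double-stranded RNA is one known trigger. These were 4 of 24 tested members, against 4.34% of all genes called, and 20 of the 24 had a difference above 0, against 5458 of all 9754 genes. The median log2 difference was 0.41, and 0.31 on each STC1 18 µl array taken alone, against 0.04 over all genes. On the 6 µl STC1 arrays it was 0.26 against the same controls. The promoter of Gbp2 is shown because it holds the repeat of an interferon-stimulated response element, GAAA and GAAA with any 2 bases between, read on the opposite strand and shown in capitals.
Gbp2, chr3:142620413-142620712, plus strand: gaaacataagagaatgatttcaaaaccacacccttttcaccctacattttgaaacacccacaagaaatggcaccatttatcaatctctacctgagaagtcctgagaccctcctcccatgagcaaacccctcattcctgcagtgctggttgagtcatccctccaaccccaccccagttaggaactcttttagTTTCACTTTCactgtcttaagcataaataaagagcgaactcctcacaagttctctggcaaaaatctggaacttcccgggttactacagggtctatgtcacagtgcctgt

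The match in Gbp2 starts 59 bases before the gene's start. Searched on both strands, the repeat was found in 3.44% of all promoters and 3.99% of genes, in 11 of the 22 tested list members with a promoter, and in 2 of the 4 called members, Gbp2 and Ifitm2, which moved in opposite directions.

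Ifit2, an interferon-induced protein that binds RNA and limits translation, was at 5.88 and 5.87 on the controls and 7.07 and 7.24 on the STC1 arrays, 2.42-fold higher (SE 0.13, limma, adjusted p = 0.00378). Its second probe gave a log2 difference of 1.48 and was also called. Gbp2, an interferon-induced GTPase, was at 6.18 and 6.33 against 7.06 and 7.58, 2.1-fold higher (SE 0.18, limma, adjusted p = 0.0184). Oasl2, a relative of the oligoadenylate synthetases, was at 6.56 and 6.61 against 7.13 and 7.78, 1.83-fold higher (SE 0.2, limma, adjusted p = 0.0493). In Gbp2 and Oasl2 replicate 2 of the STC1 18 µl arrays was the higher one. Ifitm2, a membrane protein that blocks virus entry, was at 10.73 on each control and at 9.78 and 10.01 on the STC1 arrays, 1.79-fold lower (SE 0.14, limma, adjusted p = 0.0165). Ifit2 passed with each of the 4 arrays left out. Gbp2 and Oasl2 were called only without STC1 18 µl replicate 1, and their adjusted p-values rose to 0.108 and 0.19 without the 6 µl control (limma). Without replicate 2 the log2 difference of Oasl2 was 0.54, down from 0.87. Ifitm2 passed in none of these fits (up to 0.0906, limma).

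Lists related to the interferon response differed in their share of calls. It was 6.25% for MHC class I presentation and 10.5% for the NF-kB list, against 4.34% of all genes. Of 14 tested sensors of foreign nucleic acids 0 passed, and of 12 genes of the RNA interference machinery 0 passed (limma), with medians of 0.06 and 0.14. Of 16 genes of MHC class I presentation 1 rose: Tap2, a subunit of the peptide transporter, was at 6.49 and 6.46 on the controls and 7.36 and 7.42 on the STC1 arrays, 1.88-fold higher (SE 0.12, limma, adjusted p = 0.00906). Tap2 was called only without STC1 18 µl replicate 1 among the fits with an array left out, with an adjusted p of up to 0.0608 (limma). In the NF-kB list 2 of 19 (10.5%) fell, against 2.34% of all genes. Tnfaip2 fell by 1.61-fold and the adhesion molecule Vcam1, whose second tested probe at −0.52 did not pass, by 1.54-fold (limma, adjusted p = 0.0297 and 0.0342). Neither passed with an array left out, where their adjusted p-values reached 0.168 and 0.147 (limma).

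Proteases of the extracellular matrix fell at 2 genes. Mmp3, stromelysin 1, was at 13.01 and 12.76 on the controls and 11.63 and 11.39 on the STC1 arrays, 2.6-fold lower (SE 0.15, limma, adjusted p = 0.00389), and its other 2 probes were called too, at log2 differences of −1.79 and −1.56. Mmp10, stromelysin 2, was at 6.83 and 6.75 against 5.92 and 5.44, 2.16-fold lower (SE 0.19, limma, adjusted p = 0.0231). Mmp3 passed with each of the 4 arrays left out, while Mmp10 was called only without STC1 18 µl replicate 1 (otherwise up to 0.115, limma). Of 24 tested proteases and inhibitors these 2 (8.33%) fell, against 2.34% of all genes, 0 rose, and the median was −0.15.

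Matrix genes moved both ways. Of 21 tested collagens and matrix genes 2 rose and 2 fell. That was 19% called, and 8.7% in the adhesion and integrin list below, against 4.34% of all genes. Col18a1, a basement membrane collagen, was at 11.83 and 11.79 on the controls and 10.87 and 10.8 on the STC1 arrays, 1.97-fold lower (SE 0.12, limma, adjusted p = 0.00736), and Col6a1, a chain of collagen VI, was at 7.76 and 7.98 against 8.75 and 8.95, 1.96-fold higher (SE 0.14, limma, adjusted p = 0.0111). A second probe of each gene was called the same way. Both lost their call without the 6 µl control or without STC1 18 µl replicate 2, with adjusted p-values of up to 0.0578 and 0.0759 (limma). Col5a1 fell 1.62-fold and Tgfbi, above background on neither control, was at least 1.39-fold higher (limma, adjusted p = 0.0262 and 0.013); Col5a1 passed in none of the fits with an array left out (up to 0.117, limma) and Tgfbi only without STC1 18 µl replicate 1 (otherwise up to 0.0797, limma). In the adhesion and integrin list 2 of 23 fell, Vcam1 and the hyaluronan receptor Cd44, the latter by 1.56-fold (limma, adjusted p = 0.0467); Cd44 passed in none of those fits (up to 0.17, limma), and its other probes, at −0.46 and −0.18, did not pass.

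In the list of mesenchymal factors 11.1% of tested genes were called, against 4.34% of all genes, and in the epithelial list 0%. Of 16 tested genes of epithelial identity 0 passed, the nearest being the tight junction scaffold Tjp1 with a log2 difference of −0.6 (limma, adjusted p = 0.0588). Of 18 mesenchymal factors 1 rose and 1 fell: Tgfbr1, the type I receptor for TGF-beta, was 1.59-fold higher, and Id3, an inhibitor of basic helix-loop-helix factors, was 2.04-fold lower (limma, adjusted p = 0.036 and 0.0256). Id3 was at 7.11 and 6.54 on the controls and 5.75 and 5.84 on the STC1 arrays, and was called only without the 18 µl control (otherwise up to 0.113, limma). Tgfbr1 passed in none of these fits (up to 0.144, limma), and its other probes gave 0.54 and −0.13. Pdgfrb, 1 of the 2 tested fibroblast markers, was above background on neither control and at 5.06 and 5.57 on the STC1 arrays, at least 1.48-fold higher (limma, adjusted p = 0.0446), and was called only without STC1 18 µl replicate 1 (otherwise up to 0.16, limma).

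Hypoxia and sugar metabolism showed falls in 3 of 33 tested genes and a rise in 1, so 12.1% were called, against 4.34% of all genes. Hif1a, the oxygen-regulated subunit of HIF-1, was at 8.48 and 8.24 on the controls and 6.81 and 7.05 on the STC1 arrays, 2.7-fold lower (SE 0.18, limma, adjusted p = 0.00722). Hk1, hexokinase 1, was at 6.7 and 6.73 against 5.57 and 5.5, 2.26-fold lower (SE 0.22, limma, adjusted p = 0.0295), and Pfkl, the liver-type phosphofructokinase, fell 1.75-fold (limma, adjusted p = 0.039), while its second probe, at −0.2, did not pass. Vegfa, the main growth factor of blood vessels and a known HIF-1 target, was higher: it was at 9.23 and 9.03 against 9.72 and 10.08, 1.7-fold (SE 0.16, limma, adjusted p = 0.0389), with a second probe at 0.59 that did not pass. Hif1a lost its call without the 6 µl control (limma, adjusted p = 0.0505). Pfkl and Vegfa were called only without STC1 18 µl replicate 1 (otherwise up to 0.154 and 0.151, limma), and Hk1 in none of these fits (up to 0.13, limma). With only the 4 compared arrays in the fit, Hif1a and Hk1 passed (limma, adjusted p = 0.0138 and 0.015). Pfkl and Vegfa did not pass there (limma, adjusted p = 0.0749 and 0.0731). The median of the list was −0.1.

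Angiogenic factors gave 2 rises and 1 fall among 23 tested genes, so 13% were called, against 4.34% of all genes. Beside Vegfa, Angpt1, an agonist of the Tie2 receptor, was 1.55-fold higher, and Angpt2, its context-dependent antagonist, was 1.61-fold lower (limma, adjusted p = 0.048 and 0.0324). A second tested probe of Angpt1, at a log2 difference of 0.19, did not pass. Neither angiopoietin passed with an array left out, with adjusted p-values of up to 0.18 and 0.134 (limma). In the ERK and ERBB list 1 of 29 fell, Epha2, an ephrin receptor, by 1.91-fold (limma, adjusted p = 0.0342). Among the 19 tested YAP and TEAD target genes Nuak2 rose 1.61-fold and Amotl2 fell 1.69-fold (limma, adjusted p = 0.0346 and 0.0344). Epha2 and Amotl2 were called only without STC1 18 µl replicate 1 (otherwise up to 0.139 and 0.173, limma), and Nuak2 in none of these fits (up to 0.189, limma).

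Cell cycle lists were close to all genes in their medians. Of 31 tested mitotic genes 1 fell, Aurka, the Aurora A kinase, by 1.6-fold, and of 44 DNA replication genes 1 fell, Tk1, thymidine kinase 1, by 1.5-fold (limma, adjusted p = 0.0387 and 0.0484). Neither passed with an array left out, with adjusted p-values of up to 0.161 and 0.193 (limma). The medians were 0.04 and −0.05, and both shares of called genes lay under the 4.34% over all genes. A second tested probe of Tk1, at −0.53, did not pass. Of 21 tested targets of p53, 1 rose and 2 fell, so 14.3% were called, against 4.34% of all genes. The median of these targets was 0, and the part of p53 in their changes was not tested. Fas, a death receptor, was at 5.27 and 5.14 on the controls and 6.02 and 6.49 on the STC1 arrays, 2.06-fold higher (SE 0.17, limma, adjusted p = 0.0162). Its second probe, at 0.25, did not pass. Cdkn1a, the inhibitor p21, was at 6.48 and 6.78 against 5.93 and 5.34, 1.99-fold lower (SE 0.21, limma, adjusted p = 0.0383), with a second probe called the same way. Ei24 fell 1.67-fold (limma, adjusted p = 0.019), while its second probe, at −0.4, did not pass. Fas and Cdkn1a were called only without STC1 18 µl replicate 1 (otherwise up to 0.0786 and 0.142, limma), and Ei24 in none of these fits (up to 0.093, limma).

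Of 61 tested subunits of oxidative phosphorylation 0 passed (limma), against 4.34% of all genes. A difference above 0 was found in 58 of the 61, against 5458 of all 9754 genes, and the median was 0.13, against 0.04 over all genes, with a range from −0.18 to 0.46. Of 53 cytosolic ribosomal protein genes 1 rose, Rpl22, by 1.54-fold (limma, adjusted p = 0.0379), with a list median of 0; of 26 translation initiation factors 2 fell, Eif4ebp1 and Eif2b2, the latter by 1.55-fold (limma, adjusted p = 0.0346). Neither Rpl22 nor Eif2b2 passed with an array left out (up to 0.176 and 0.189, limma). Of 18 metallothioneins and zinc transporters 1 rose: Mt2 was at 6.66 and 7.19 on the controls and 7.68 and 8.17 on the STC1 arrays, 2-fold higher (SE 0.21, limma, adjusted p = 0.0411). Mt2 lost its call without the 6 µl control, where its adjusted p was 0.19, and without STC1 18 µl replicate 2 (limma).

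Sterol and fatty acid synthesis separated the STC1 18 µl arrays from each other. None of its 28 tested genes passed (limma), but 23 had a difference above 0 and the median was 0.31. That median was 0.47 on STC1 18 µl replicate 1 and 0.07 on replicate 2, and it was −0.04 on the 6 µl STC1 arrays against the same controls. The nearest to the threshold were Ebp, Sc5d and Hsd17b7, enzymes of cholesterol synthesis, with log2 differences of 0.54, 0.56 and 0.67 (limma, adjusted p = 0.074, 0.0747 and 0.0906).

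**Figure D5:**
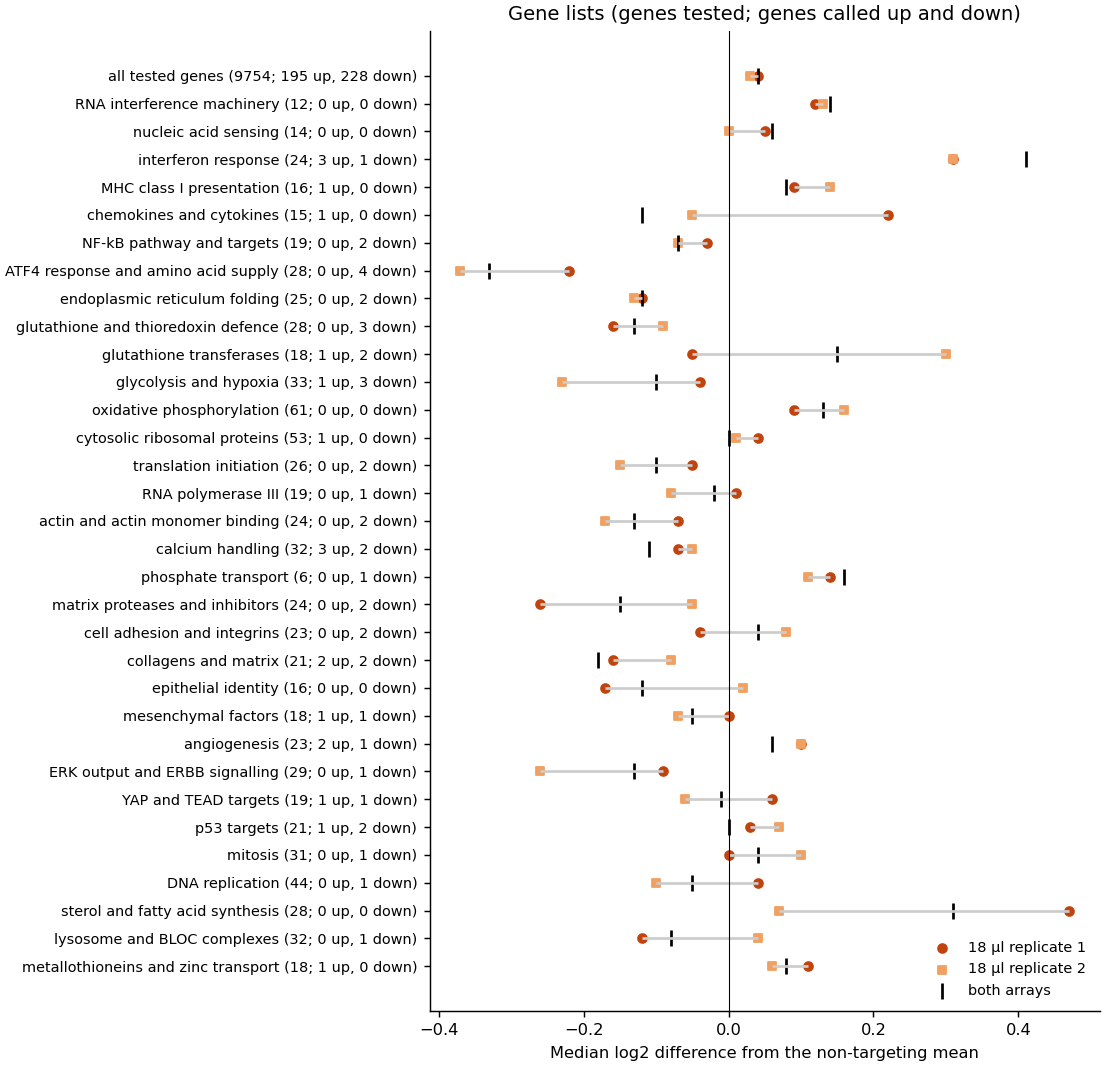
Median log2 difference from the mean of the controls over the tested genes of each list, for STC1 18 µl replicate 1 (circle), replicate 2 (square) and both arrays (bar), with the numbers of genes tested and called. Among the lists plotted, the ATF4 list stands lowest at −0.33 and the interferon list highest at 0.41, and the sterol list has 0.47 and 0.07 on the separate arrays.

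Over the 36 lists together, 784 of 1058 genes were tested, 19 rose and 37 fell, where 2% of all tested genes rose and 2.34% fell. With 1 array left out, 15 of these 56 genes were still called without the 6 µl control, 22 without the 18 µl control, 36 without STC1 18 µl replicate 1 and 14 without STC1 18 µl replicate 2. The 11 called every time included Ccl9, Ifit2 and Slc24a3 among the rises and Tmsb10, Mmp3 and Slc7a11 among the falls.

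Whether the 18 µl virus gave other levels than the 6 µl STC1 virus was tested directly, and 0 of 18076 probes passed (limma, smallest adjusted p = 0.434), with 1230 (6.8%) at an unadjusted p under 0.05. When arrays were scaled to their medians instead, 121 probes passed. The 95% interval of a difference, before adjustment for the number of probes, had a median half-width of 0.34 on the log2 scale. Adjusted over all probes, differences larger than that did not pass either, as the genes named next show, so they are not excluded. The genes nearest to the threshold were Ccl9, higher at 18 µl by 0.83, Sag by 0.68, Exosc3 by 0.67, Slc37a3 by 0.67 and Proc by 0.7. Proc was above background on neither 6 µl STC1 array, so its 0.7 is not a measured fold. Lower at 18 µl were Ttyh2, with a log2 difference of −0.9, Baiap2 at −0.88, Slc5a3 and Tmem164 at −0.81 each and Pou5f2 at −0.8 (limma, adjusted p = 0.434 for these 10). Both comparisons with non-targeting share the control arrays, so their values are given side by side only. The log2 difference from the controls at 18 and 6 µl was −1.29 and −1.41 for Stc1 and −3.21 and −3.08 for Tmsb10. It was 2.68 and 1.85 for Ccl9, −1.57 and −1.14 for Slc7a11 and 1.28 and 1.09 for Ifit2.

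Some transcripts differed between the STC1 18 µl arrays as much as the called genes did between groups. The largest difference among named genes was in Scara5, a scavenger receptor for ferritin, at 6.31 on replicate 1 and 7.89 on replicate 2, with controls at 8.19 and 6.69. Notch1, the receptor of the Notch pathway, was at 7.87 and 9.25, with controls at 8.18 and 8.03 and the 6 µl STC1 arrays at 9.14 and 9.41, so that replicate 1 sat with the controls and replicate 2 with the 6 µl arrays. F13a1, a coagulation factor XIII subunit, at 4.9 and 6.43, Selenbp2, at 5.05 and 6.58, and Fbxo32, a muscle ubiquitin ligase, at 5.78 and 7.09, were also higher on replicate 2. Trp53inp1 stood at 6.48 and 7.92 and the matrix protease Adamts4 at 5.04 and 6.43, while Il11, a cytokine of the interleukin 6 family, was higher on replicate 1, at 6.76 against 5.24. None of these 8 genes passed in the comparison with the controls, where their adjusted p-values lay between 0.267 and 0.758 (limma). They were picked for a large difference between the STC1 18 µl arrays, which widens the SE. That outcome therefore follows largely from the choice.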

How the data were processed

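Total RNA from transduced 4T1ch9 cells was labelled as biotinylated cRNA for Illumina bead arrays, per the labels' protocols. Per the file headers, the deposited raw table gives every probe, on every array, an intensity on a linear scale and a detection p-value. The deposited processed table holds log2 values. When set against the raw values, its columns matched their quantile-normalised log2 (median absolute difference 2e-04 or less), each with a median of 5.777. The scanner software was not given in the sources used here.

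Intensities were background-corrected with limma's neqc function (limma 3.58.1, R 4.3.3), with the background taken from the detection p-values (which step as from 936 negative controls) and an offset of 16, then quantile-normalised and put on the log2 scale. The offset draws low values together, so differences of dim probes are understated, and a shift of most transcripts one way would be removed. Tests covered 18076 of 45281 probes, those detected (p-value under 0.05) on 2 or more arrays. Symbols came from the platform annotation (34903 probes, 18 with several symbols), updated through 34807 matched gene identifiers; 10378 probes were unnamed here, and 75 called probes named no single gene. A gene was represented by its tested probe of highest mean log2 intensity.

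Groups came from the labels, and the sources used here give no batch. lmFit and eBayes were fitted to all 6 arrays with 1 mean for each of the 3 groups (3 residual and 5.66 prior degrees of freedom). P-values were two-sided and adjusted by Benjamini-Hochberg over all tested probes, and called, changed, rose and fell mean an adjusted p under 0.05. Where a gene was above background on no array of a group, the fold is a bound, taken against whichever was higher, the gene's own signal or the dimmest detected one. Fits without 1 array of a pair assume that the lone array varies like the others. The genes named are Stc1, Stc2, the 15 largest rises and 15 largest falls among called genes with separate groups (clone names skipped), the called members of each of 36 lists or those nearest to the threshold, and the genes that differed most between volumes or between the STC1 18 µl arrays; further members of the ATF4 list were named after their values were seen. Members and lists were chosen with earlier results of these data known. Promoter sequences are RefSeq's. Only the limma fit was tried on simulated data, with independent normal errors for each probe and array. Background correction, normalisation and effects shared by a whole array or culture were not part of that trial. Its outcome is not reported here.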

Additional observations from a re-analysis of the deposited data

How the results depend on the processing

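The count of 717 called probes (limma, adjusted p under 0.05) rose to 1447 without background correction and to 1446 with the authors' deposited log2 values, was 971 with median scaling and 1012 with detection on all 6 arrays, and fell to 385 with no filter on dim probes, 292 with only the 4 compared arrays in the fit, 93 with the control of the same volume and 160 where a 2-fold change was also asked for. Leaving out 1 of the 6 arrays gave 89 to 454 probes and 15 to 48 called list genes, against 56 with all arrays. Called list genes numbered 104 without background correction and with the authors' values, 33 with no filter, 32 with only the 4 arrays and 15 with the control of the same volume. Between the STC1 volumes 0 probes passed, 121 with median scaling and 0 to 1 with an array left out. With the replicate block 608 probes and 50 list genes were called, 550 of the probes in common with the fit without it. Same-numbered arrays of the controls and STC1 18 µl deviated with a correlation of −0.11, so the numbers were not taken as pairs; the crossed replicate block, added after seeing the data, gave 604 probes. The log2 difference of Stc1 was −1.44 to −1.13 with an array left out. The 30 genes with the largest changes kept their direction in each setting that tested them. They were chosen with separate groups, so leaving out an array could not turn their direction. The differences of 7 of them shrank by over 1.5 times without background correction. Kdr, an endothelial marker near background, turned from −0.03 to 0.18 without the 18 µl control and to 0.09 without STC1 18 µl replicate 1, and was lowest, at −0.23, without the 6 µl control. The medians of the ATF4 and interferon lists ranged from −0.37 to −0.22 and from 0.3 to 0.49 over the settings. The causes of these shifts were not tested. With 2 arrays a group, the number of arrays limits the precision: the smallest called log2 difference was 0.54.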
